A study of Mus musculus with 175 samples.

Results

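Platelets carry their glycoprotein receptors on the surface and their adhesive and chemokine cargo in alpha granules. Transcripts of 10 genes of this group, Gp9, Gp1ba, Gp1bb, Gp5, Gp6, Itga2b, Itgb3, Pf4, Ppbp and Vwf, were followed in single progenitors of the mouse fetal liver. The genes were chosen by symbol, as 10 of the 49585 mouse features of the deposited count table, and each symbol matched 1 feature. The 172 cells analysed were single megakaryocyte-erythroid progenitors (MEPs) and common myeloid progenitors (CMPs) of the E14.5 liver, of a C57BL/6 by ICR cross, sorted as lineage-negative, SCA1-, C-KIT+, CD16/32 low, CD41- and CD150+ cells. MEPs were CD34- and CMPs were CD34+. All cells carried 1 reporter allele in place of a normal Runx1 allele, with human CD4 on the surface as the readout of the Runx1 P2 promoter, so every population was heterozygous at the knock-in locus. The genotype label and the extraction protocol disagree on whether the GFP of this allele sits at P1 or P2, and GFP was not used here. After the study's cell filters there were 56 MEPs without the reporter (P2- MEPs), 47 MEPs with it (P2+ MEPs), 27 P2- CMPs and 42 P2+ CMPs. Livers from 2 litters were pooled before the sort, so that each of the 4 populations is 1 sample and no comparison between them has a replicate. No p-value is given for this reason, and the 95% intervals of levels and ratios cover counting error only, those of shares of cells the sampling of cells from 1 pool.

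Glycoproteins Ib-alpha, Ib-beta, IX and V, the products of Gp1ba, Gp1bb, Gp9 and Gp5, form the platelet receptor for von Willebrand factor. Integrin alpha-IIb, which is the CD41 antigen, and beta-3, encoded by Itga2b and Itgb3, form the fibrinogen receptor, and Gp6 encodes the collagen receptor. Pf4 and Ppbp encode chemokines that are stored in alpha granules, as is von Willebrand factor itself, the product of Vwf, which endothelial cells also make. Many of these genes are known as markers of maturing megakaryocytes, whereas Itga2b is also known from early haematopoietic progenitors and Vwf from platelet-biased stem cells. Many of their regulatory regions are known to bind GATA1 and ETS factors such as FLI1.

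Reads on mouse genes numbered between 295064 and 1540631 per cell, with population medians from 520540 in P2- MEPs to 804632 in P2+ CMPs. Levels are given as CPM, that is, the summed reads of a gene over the cells of a population per 1000000 of their summed reads on mouse genes. A gene without a read in a population was set to 3 reads over that population, and the ratio is then given as a bound by this convention, which is not a 95% limit. The transcripts of the sorted antigens were examined beside the labels. Runx1 went from 23.4 CPM without the reporter to 57.0 CPM with it in MEPs, and from 71.5 to 156 CPM in CMPs. Cd34 was at 0.0327 CPM (P2-) and 13.05 CPM (P2+) in MEPs and at 274.3 CPM (P2-) and 541 CPM (P2+) in CMPs. Slamf1, encoding CD150, was read in 9 of 56 P2- and 31 of 47 P2+ MEPs, and among CMPs in 12 of 27 P2- and 24 of 42 P2+ cells. Kit lay between 259.3 and 369.4 CPM in all 4 populations. Ly6a, encoding SCA1, had no read outside 3 P2+ CMPs, and Fcgr3, encoding CD16, was read in 2 P2- CMPs and 6 P2+ CMPs and in no MEP. For 1 P2- CMP the subtype label names a MEP.

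Promoter sequences were available for 8 of the 10 genes, and those of Gp9, Gp1ba and Gp5, which encode 3 subunits of 1 receptor, are shown. Each is the 250 bases before the RefSeq start site on GRCm38.p6, at chr6:87777820-87778069 on the plus strand for Gp9, chr11:70638872-70639121 on the plus strand for Gp1ba and chr16:30310782-30311031 on the minus strand for Gp5, and is written 5′ to 3′ on the strand of its gene. Capitals mark, on either strand, the core letters GATAA that GATA factors bind, AGGAA that ETS factors bind and TGTGGT that RUNX factors bind.

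Gp9 promoter: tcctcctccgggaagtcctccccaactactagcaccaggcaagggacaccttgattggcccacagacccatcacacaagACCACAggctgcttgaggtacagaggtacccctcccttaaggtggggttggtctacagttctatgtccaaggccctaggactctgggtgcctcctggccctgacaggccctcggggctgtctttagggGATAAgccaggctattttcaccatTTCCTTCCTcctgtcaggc
Gp1ba promoter: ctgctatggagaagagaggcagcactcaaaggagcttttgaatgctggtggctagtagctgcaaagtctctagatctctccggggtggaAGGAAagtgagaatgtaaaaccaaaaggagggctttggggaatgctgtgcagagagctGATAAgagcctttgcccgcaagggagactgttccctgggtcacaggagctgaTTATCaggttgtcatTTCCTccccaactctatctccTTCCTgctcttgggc
Gp5 promoter: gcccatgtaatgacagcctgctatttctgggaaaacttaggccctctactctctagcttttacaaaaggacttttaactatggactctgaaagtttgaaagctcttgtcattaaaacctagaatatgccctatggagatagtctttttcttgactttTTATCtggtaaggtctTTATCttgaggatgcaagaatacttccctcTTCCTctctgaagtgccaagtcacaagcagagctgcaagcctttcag

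The Gp9 window held 1 GATAA, 2 AGGAA and 1 TGTGGT match, and was the only one of the 8 windows with TGTGGT. Gp1ba had 2 GATAA and 3 AGGAA matches, and Gp5 had 2 GATAA matches and 1 AGGAA match. The 2 AGGAA matches of Gp9 shared 1 base, and matches to different motifs did not overlap in these windows. Of all 32851 promoter windows of this length, 22.6% held GATAA, 60.3% AGGAA and 14.0% TGTGGT. The Gp1bb window held none of these 3 and 4 matches to CACCC, which occurs in 52.0% of all windows. Its window lies in the last exon of the neighbouring gene Sept5 and is not shown. The windows of Itga2b, Pf4 and Ppbp, also not shown, held no GATAA and 3, 1 and 1 AGGAA matches. GATAA was thus found only in the windows shown and in that of Gp6. Matches are descriptions of letters, and binding was not measured.

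Gp9, encoding the small subunit that the von Willebrand receptor needs to reach the surface, lies on chromosome 6 (87778072 to 87779768, plus strand, GRCm38). It had no read in any of the 56 P2- MEPs. In P2+ MEPs it was read in 25 of 47 cells, at 2.48 to 552 CPM with a median of 94.3 CPM among these cells, and the pooled level was 67.2 CPM (64.4 to 70.1). Its reads in MEPs thus all came from P2+ cells, although 22 of these cells had none. With 3 reads over the P2- MEPs as the floor (0.0980 CPM), Gp9 was at least 686-fold higher in P2+ MEPs, a log2 bound of 9.42, and the 95% counting limit was 9.12. One P2+ MEP held 576 of the 2122 reads, and the log2 bound was 8.99 without it. In CMPs the reporter did not divide the cells in this way. The pooled level was 37.5 CPM in P2- CMPs (34.7 to 40.4; 13 of 27 cells) and 39.6 CPM in P2+ CMPs (37.6 to 41.7; 23 of 42 cells), a log2 ratio of 0.08 (-0.05 to 0.21). The highest cell of each CMP population had 137 and 190 CPM.

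Gp1ba, encoding the subunit that binds von Willebrand factor, lies on chromosome 11 (70639122 to 70642036, plus strand). It was already read in 28 of 56 P2- MEPs, at 2.60 to 154 CPM, and in 22 of 47 P2+ MEPs, at 2.28 to 342.7 CPM. The pooled level was 18.1 CPM (16.7 to 19.7) in the former and 36.5 CPM (34.5 to 38.7) in the latter, and the log2 ratio was 1.01 (0.86 to 1.16). After thinning every cell to 100000 reads, 46.4% of P2- MEPs (33.0 to 60.3) and 40.4% of P2+ MEPs (26.4 to 55.7) had a read, so the higher level was not accompanied by a higher share of cells, and the median among cells with a read was 31.9 CPM against 71.5 CPM. In CMPs Gp1ba was scarce in the P2- cells, with 16 reads in 2 cells (0.873 CPM), and was at 11.6 CPM in the P2+ cells, with reads in 12 of 42. The log2 ratio was 3.73 (3.02 to 4.55), 4.71 without the highest cell of each population and 3.09 with equal weight for every cell.

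Gp1bb, encoding the subunit that is disulphide-linked to glycoprotein Ib-alpha, lies on chromosome 16 (18620317 to 18622403, minus strand). It resembled Gp9 in the MEPs, with no read in P2- MEPs and 948 reads in 15 P2+ MEPs, at 27.2 to 190 CPM. The pooled level in P2+ MEPs was 30.02 CPM (28.14 to 31.999), at least 306.3-fold above the floor of the P2- MEPs. In CMPs, unlike Gp9, it was nearly absent from P2- cells, with 4 reads in 1 cell, and reached 4.70 CPM in P2+ cells, with reads in 5 of 42 (log2 ratio 4.43, 3.05 to 6.32). In the GENCODE vM21 annotation 92.9% of the 2087 exon bases of Gp1bb lie under exons of Sept5 or Gm49601, and 149 bases lie outside both. Reads that fall on more than 1 gene are not counted by the authors' program, so the level of Gp1bb is uncertain. Sept5 had no read in any cell.

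Gp5, encoding the subunit that thrombin cleaves, lies on chromosome 16 as well (30307685 to 30310779, minus strand) and was the most widely read of the 10 genes in MEPs. Reads were found in 41 of 56 P2- MEPs, at 1.48 to 132 CPM, and in 39 of 47 P2+ MEPs, at 2.52 to 247.02 CPM. Pooled, Gp5 was at 32.1 CPM (30.1 to 34.2) without and 72.9 CPM (70.0 to 75.9) with the reporter, and the log2 ratio was 1.18 (1.07 to 1.29). The cell values of the MEP populations overlapped over most of their range. In CMPs the direction was the opposite, with 17.8 CPM in P2- cells (16.0 to 19.9; 11 of 27 cells) and 13.01 CPM in P2+ cells (11.9 to 14.2; 12 of 42 cells), a log2 ratio of -0.45 (-0.66 to -0.25) that did not reach 2-fold. Whether the MEP and CMP ratios differ was not tested, since neither has a replicate.

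**Figure D1:**
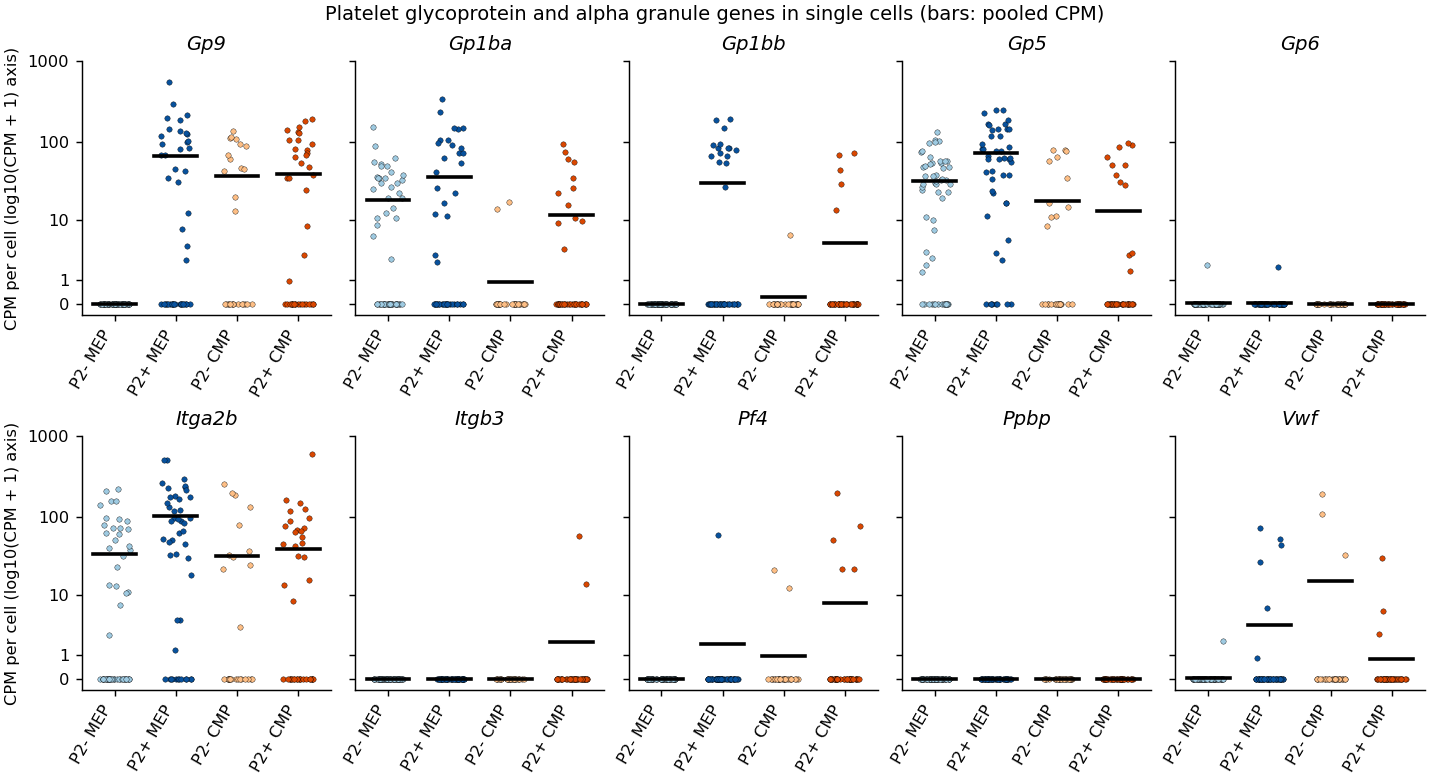
CPM of each of the 10 genes in every cell (points; vertical axis on a log10(CPM + 1) scale) in the 4 populations, with the pooled CPM of the population as a black bar. Gp9 and Gp1bb lie at 0 in all 56 P2- MEPs, Gp5 and Itga2b have reads in all 4 populations, and Ppbp lies at 0 in all 172 cells.

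Itga2b, the gene of the CD41 antigen on chromosome 11 (102453297 to 102470122, minus strand), was read although the cells were sorted as CD41-. P2- MEPs had reads in 26 of 56 cells, at 2.49 to 223.6 CPM, and P2+ MEPs in 35 of 47 cells, at 1.26 to 512 CPM. The pooled levels were 33.6 CPM and 103 CPM, a log2 ratio of 1.62 (1.52 to 1.72). P2- CMPs were at 32.02 CPM (29.5 to 34.7; 11 of 27 cells) and P2+ CMPs at 39.1 CPM (37.1 to 41.2; 21 of 42 cells), a log2 ratio of 0.29 (0.15 to 0.43). P2- CMPs and P2- MEPs could not be ordered, with a log2 ratio of -0.07 (-0.22 to 0.08) that turned to 0.16 with equal weight for every cell and with DESeq2 size factors. Surface protein was not measured in these files.

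Itgb3, encoding the partner chain of CD41 and lying 2137877 bases from Itga2b on the same chromosome, had no read in the 130 cells of 3 of the populations. In P2+ CMPs it had 69 reads in 2 cells, 60 in the one and 9 in the other, and both of these cells also had Itga2b, Gp9 and Thbs1 reads. The pooled level was 1.90 CPM (1.48 to 2.402), at least 11.6-fold above the floor of the P2- CMPs. Without the highest cell 9 reads were left, which is below the minimum of 10 reads used for a ratio. The 33 P2+ MEPs with Itga2b in the thinned counts thus had no Itgb3 read, and 0 of 47 cells allows, by a floor of 3 cells and not as a 95% limit, a share of cells with a read of up to 6.38%.

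Gp6, for the collagen receptor, had 1 read in 1 P2- MEP and 1 read in 1 P2+ MEP and none in CMPs, and no ratio is given. The gene spans 5900 exon bases on chromosome 7 (4363965 to 4397744, minus strand). Its upstream window held 1 GATAA and 2 AGGAA matches, as many as that of Gp9.

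Pf4, encoding platelet factor 4, lies on chromosome 5 (90772435 to 90773383, plus strand), 2371 bases after the end of Ppbp. Reads were found in 8 cells in all. In P2+ MEPs all 54 reads came from 1 cell, and P2- MEPs had none. P2- CMPs had 9 reads in 1 cell and 8 in another (0.927 CPM, 0.540 to 1.48), and 5 P2+ CMPs had 97, 75, 75, 22 and 13 reads (7.76 CPM, 6.88 to 8.72). Pf4 was thus highest in P2+ CMPs, with a log2 ratio of 3.06 (2.36 to 3.86) over P2- CMPs and 2.18 (1.76 to 2.63) over P2+ MEPs. The log2 bound of 4.13 for P2+ over P2- MEPs rests on that single cell, without which neither MEP population had a read. Of the 5 P2+ CMPs with Pf4, 2 had no read of another member.

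Ppbp, the neighbouring gene of pro-platelet basic protein (90768518 to 90770063), had no read in any of the 172 cells. The floor of 3 reads was 0.0980 CPM (P2-) and 0.0950 CPM (P2+) in MEPs and 0.164 and 0.0825 CPM in CMPs.

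Vwf lies on chromosome 6 (125546774 to 125686679, plus strand) and was read in 13 cells. P2- MEPs had 1 read in 1 cell. P2+ MEPs had 114 reads in 6 cells (3.61 CPM, 2.98 to 4.34), with 41, 24, 24, 20, 4 and 1 reads each. In 3 P2- CMPs there were 152, 109 and 18 reads (15.2 CPM, 13.5 to 17.1), and P2+ CMPs had 28 reads in 3 cells (0.770 CPM, 0.512 to 1.11), with 20, 7 and 1 reads. The order of the reporter populations was therefore opposite in the MEPs and the CMPs, with log2 ratios of 6.79 (4.28 to 12.10) in MEPs and -4.30 (-4.92 to -3.74) in CMPs. Each direction rests on few cells. Leaving out the highest cell of each population gave a lower bound of 4.56 in MEPs and a log2 ratio of -5.01 in CMPs, where DESeq2 size factors gave -3.61, and the difference between compartments was not tested. All 3 P2- CMPs with Vwf had Gp9 reads, and 2 of them had no Gp1ba, Gp5 or Itga2b read. The 9 genes of the endothelial list summed to 96.0 and 116 CPM in P2- and P2+ MEPs and to 277.1 and 347.7 CPM in P2- and P2+ CMPs. In P2- CMPs, where Vwf was highest, 4 of the 5 that passed the minimum of 10 reads were at least 2-fold higher than in P2- MEPs, with Emcn at 25.6 CPM against 0, Tek at 43.1 against 1.57, Kdr at 1.36 against 0 and Egfl7 at 199 against 86.3. Of all genes 25.8% were at least 2-fold higher there, and Emcn and Kdr passed through the P2- CMPs alone. Cdh5, a defining endothelial gene, was read in 1 P2- CMP and in no P2- MEP, and in 1 cell of each P2+ population. In P2+ CMPs, where Vwf was lower, 2 of 7 endothelial genes were at least 2-fold higher than in P2- CMPs and 0 lower. Of all genes 17.4% and 14.7% were, and 1 of the 2 passed through the P2+ CMPs alone. The part of endothelial RNA in the Vwf values was not tested.

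Set per kilobase of all exon bases, Gp9 was the highest of the 10 genes in 3 populations. For Gp1bb 92.9% of these bases lie under other genes and 149 bases do not. Its level per countable base was not computed and could exceed that of Gp9, so the place of Gp1bb is not settled. In P2+ MEPs the pooled level was 76.3 CPM per kilobase for Gp9, followed by 33.2 for Gp5, 18.9 for Itga2b, 14.4 for Gp1bb, 13.4 for Gp1ba, 2.37 for Pf4 and 0.225 for Vwf. The counting intervals of Gp1bb and Gp1ba overlapped there, and the value of Gp1bb carries the uncertainty of its overlapping exons. P2- MEPs had 14.6 for Gp5, 6.67 for Gp1ba and 6.16 for Itga2b, and the intervals of the last pair overlapped. P2- CMPs had 42.5 for Gp9, 8.12 for Gp5 and 5.87 for Itga2b. P2+ CMPs had 44.96 for Gp9 and 10.8 for Pf4, although the latter came from 5 cells, and then 7.18 for Itga2b, 5.92 for Gp5 and 4.27 for Gp1ba. The other members were at 2.25 CPM per kilobase or lower in either CMP population.

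For P2+ against P2- MEPs, a member was counted when it had at least 10 reads over both populations, and 7 of 10 did. All 7 were at least 2-fold higher in P2+ MEPs, where 20.4% of 15769 genes were at least 2-fold higher and 12.5% at least 2-fold lower. Gp9, Gp1bb, Pf4 and Vwf passed the minimum through the P2+ cells alone and so could hardly be other than higher, which leaves Gp1ba, Gp5 and Itga2b as members with reads enough in either population. Among all genes at least 2-fold higher, 50.4% likewise had 10 or more reads in P2+ MEPs and fewer in P2- MEPs. For P2+ against P2- CMPs, 8 members passed, of which Gp1ba, Gp1bb, Itgb3 and Pf4 were at least 2-fold higher and Vwf was at least 2-fold lower, where 17.4% and 14.7% of 16107 genes were. Gp1bb and Itgb3 passed through the P2+ CMPs alone, so that their direction was largely set by the minimum and is no result beside these shares. Of all genes at least 2-fold higher, 66.1% also had 10 or more reads in P2+ CMPs and fewer in P2- CMPs. Gp9, Gp5 and Itga2b lay within 2-fold. The median log2 ratio over all genes was 0.06 in MEPs and -0.0020 in CMPs.

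**Figure D2:**
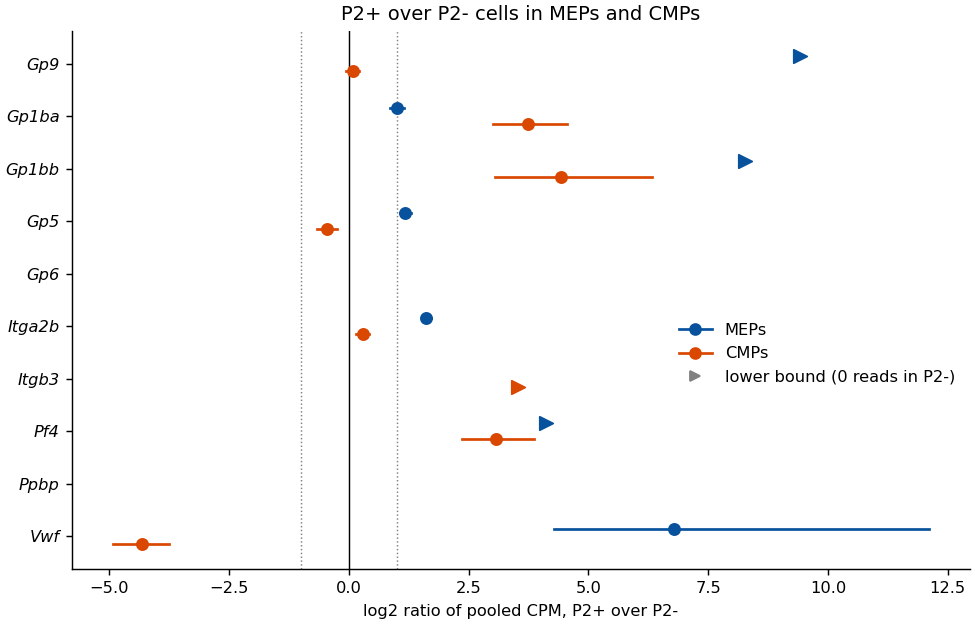
Log2 ratio of the pooled CPM of P2+ over P2- cells for each gene in MEPs (blue) and CMPs (orange), with 95% counting intervals as lines, lower bounds as arrowheads and 2-fold as dotted lines. All 7 genes plotted for MEPs lie at 1.01 or above, whereas in CMPs Gp9, Gp5 and Itga2b lie within 2-fold and Vwf at -4.30. Gp6 and Ppbp have no ratio.

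CMPs were also set against MEPs within each reporter state. These comparisons share their populations with those above and are not independent of them. Among P2- cells, 6 members passed the minimum. Gp9 (at least 382.3-fold), Pf4 (at least 9.46-fold) and Vwf (466-fold against 1 read, a log2 ratio of 8.86 with an interval of 6.37 to 14.17) were higher in CMPs, where 25.8% of 15631 genes were at least 2-fold higher and 15.1% at least 2-fold lower. All 3 passed through the P2- CMPs alone and so could hardly be other than higher, and 41.7% of all genes at least 2-fold higher passed in the same way. Without the highest cell the log2 bound of Pf4 fell to 2.17 from 3.24. Gp1ba was 20.8-fold lower in P2- CMPs, a log2 ratio of -4.38 that rests on 16 reads in 2 CMPs and became -5.51 without the highest cell, while Gp5 and Itga2b lay within 2-fold. P2- MEPs thus had reads of Gp1ba, Gp5 and Itga2b without Gp9, and P2- CMPs had Gp9, Gp5 and Itga2b with little Gp1ba. Among P2+ cells, 8 members passed. Gp1ba, Gp1bb, Gp5, Itga2b and Vwf were at least 2-fold lower in CMPs and Itgb3 and Pf4 at least 2-fold higher, against 16.5% and 23.2% of 16572 genes, and Itgb3 passed through the P2+ CMPs alone. Vwf had a log2 ratio of -2.23, and -3.39 without the highest cell. Gp5, at 72.9 CPM in P2+ MEPs and 13.01 CPM in P2+ CMPs, had a log2 ratio of -2.49 (-2.63 to -2.34). Gp9 differed by a log2 ratio of -0.76 (-0.86 to -0.67).

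The members were next counted within single cells, after each cell was thinned to 100000 reads on mouse genes to even out depth. The median P2- MEP had reads of 1 member of 10 and the median P2+ MEP of 3, whereas the medians in CMPs were 1 (P2-) and 1.5 (P2+). Cells with at least 4 members made up 0 of 56 P2- MEPs (up to 5.36% by the floor of 3 cells), 13 of 47 P2+ MEPs (27.7%, 15.6 to 42.6), 2 of 27 P2- CMPs (7.41%, 0.910 to 24.3) and 6 of 42 P2+ CMPs (14.3%, 5.43 to 28.5). Without thinning these counts were 0, 19, 3 and 7 cells. The most members in 1 cell was 6, in 2 P2+ MEPs, and no P2- MEP had more than 3. In P2- MEPs only Gp1ba, Gp5 and Itga2b had a read after thinning, so 4 members could not be read there. The 0 of 56 thus restates the absence of the other members and is no separate result. At the other end, 9 P2- and 2 P2+ MEPs had none, as had 7 P2- and 10 P2+ CMPs.

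**Figure D3:**
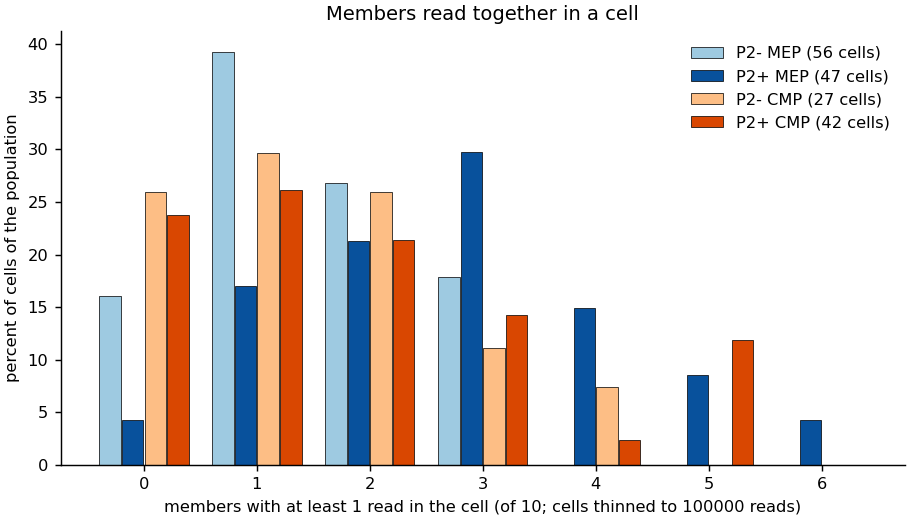
Percent of the cells of each population (vertical axis) by the number of members with at least 1 read in the cell after thinning to 100000 reads (horizontal axis). P2+ MEPs peak at 3 members and reach 6, P2- MEPs peak at 1 and end at 3, and both CMP populations have cells with 4 members. Only Gp1ba, Gp5 and Itga2b had a read in P2- MEPs after thinning, so more than 3 could not be reached there.

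Transcripts for the 3 chains that the von Willebrand receptor needs, Gp1ba, Gp1bb and Gp9, were read together in 6 of 47 P2+ MEPs (12.8%, 4.83 to 25.7) and 2 of 42 P2+ CMPs (4.76%, 0.582 to 16.2). No P2- MEP and no P2- CMP had them together. Gp9 and Gp1bb had no read in P2- MEPs, and in P2- CMPs Gp1bb was read in 1 cell and Gp1ba in 2. The absence of all 3 together therefore follows largely from the single genes. With Gp5 and Itga2b added, 5 P2+ MEPs and 2 P2+ CMPs had reads of all 5 genes. In P2+ MEPs, 18 of 22 cells with Gp9 also had Gp5, beside 17 of 25 cells without Gp9. Itga2b was read in 14 of 15 cells with Gp1bb and in 19 of 32 cells without it. Gp1ba was read in 9 of 22 cells with Gp9 and 10 of 25 cells without it. In P2+ CMPs all 5 cells with Gp1bb had Itga2b, as had 15 of the other 37, and 7 of 11 cells with Gp1ba had Gp5, beside 3 of 31 without Gp1ba. In P2- MEPs, Gp1ba and Gp5 were read together in 19 cells, of 26 with Gp1ba and 34 with Gp5. These pairs are descriptions over cells of 1 pool.

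**Figure D4:**
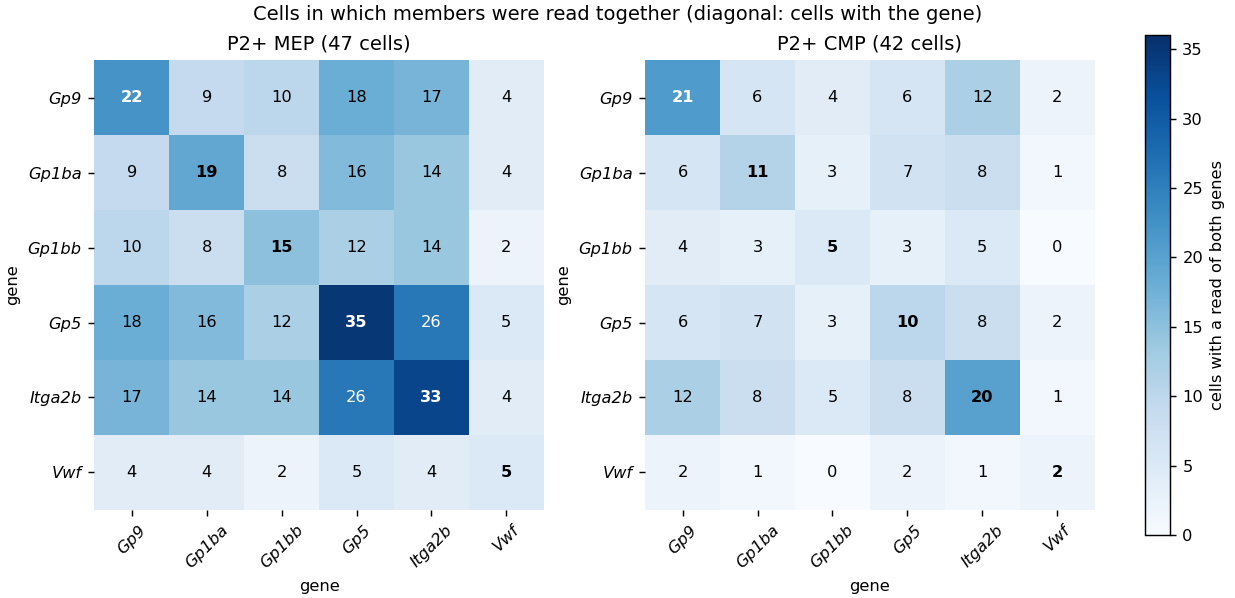
Number of thinned cells with a read of both genes of each pair (colour and number in each square) in P2+ MEPs and P2+ CMPs, with the number of cells that have the gene on the diagonal. In P2+ MEPs the most frequent pair is Gp5 with Itga2b, in 26 cells, and in P2+ CMPs it is Gp9 with Itga2b, in 12 cells.

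Erythroid and megakaryocytic regulators were read in the same cells as the members. Klf1, an erythroid transcription factor, was read in 17 of 22 P2+ MEPs with Gp9 and 22 of 25 without it. Fli1, a megakaryocytic ETS factor, was read in 17 of 22 with Gp9 and 14 of 25 without it, and Plek, a platelet protein kinase C substrate, in 17 of 22 and 10 of 25. Gata1 was read in all 47 P2+ MEPs. Thbs1, encoding thrombospondin of the alpha granule, was read in 8 P2+ MEPs, and all 8 also had Gp9 and Itga2b, 7 had Gp1bb and 4 had Gp1ba. In P2+ CMPs all 5 cells with Thbs1 likewise had Gp9 and Itga2b. Plek was read in all 11 P2+ CMPs with Gp1ba and in 13 of 31 without.

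Among 9234 genes read in at least 25% of the 172 cells, the one whose CPM followed the mean log2(CPM + 1) of the members most closely was Fermt3 (Spearman's rho 0.59), encoding kindlin-3, which activates integrins. It was followed by Rabgap1l (0.47), Treml1 (0.46), Rbpms2 (0.45), Plek (0.45), Pfn1 (0.43), Muc13 (0.43), Bmp2k (0.42), Tuba8 (0.42) and Mfsd2b (0.41). Fermt3 went from 293.96 to 570 CPM between P2- and P2+ cells in MEPs and from 362.2 to 402 CPM in CMPs. Within the 47 P2+ MEPs the leading genes of 8872 included Meis1 (0.61), which encodes a homeodomain factor, Exoc3l2 (0.57), Plek (0.56), Rbpms2 (0.55), Fermt3 (0.53), Lasp1 (0.53), Slc14a1 (0.52), Ptp4a3 (0.52) and Pde4b (0.52). With the number of members read as the score, 9 of the 10 genes over all cells and 7 of the 10 within P2+ MEPs were again among the leading 10. The cells share their pool, depth differs between them, and no test was made of these correlations.

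Other platelet and megakaryocyte genes were examined as lists, to be read against the 20.4% of all genes at least 2-fold higher and 12.5% lower in P2+ MEPs, and 17.4% and 14.7% in P2+ CMPs. Of 19 other platelet surface receptors, 15 passed the minimum in MEPs, with 14 at least 2-fold higher and 1 lower in P2+ cells and a median log2 ratio of 3.14. Of the 14, 4 passed through the P2+ cells alone and could hardly be other than higher, and the 1 lower gene passed through the P2- cells alone. The highest were F2rl2, a thrombin receptor chain, with at least 8.49, G6b, an inhibitory receptor, with at least 5.38 from 1 cell, and Esam, with 4.20 from 1 P2+ MEP. The lowest were Cd36, at most -3.67 from 1 P2- MEP, Itga6 at 1.76 and P2ry1 at 1.87. In CMPs 14 passed, 5 were higher and 1, which passed through the P2- cells alone, was lower, with a median of 0.78. F2rl2 (2.36), P2ry1 (1.90) and the thromboxane receptor Tbxa2r (1.51) led, and Selp, encoding P-selectin, was lowest at -4.09, from 1 cell of either population. F2rl2 was listed at 0 CPM without and 35.3 CPM with the reporter in MEPs, and at 6.22 and 31.97 CPM in CMPs.

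Of 18 other alpha granule cargo genes, 17 passed in MEPs, with 14 higher, 1 lower and a median of at least 3.13, which is itself a bound set by the floor. Of the 14, 7 passed in that way through the P2+ cells, and the 1 lower gene through the P2- cells. Thbs1 led with at least 10.12 (109 CPM in P2+ MEPs, from 8 cells), followed by the carrier of factor V, Mmrn1, at 9.37 (21.6 CPM, 11 cells, against 1 read) and Pdgfb at 6.27. Serpine2, at most -2.46 from 1 cell, Tgfb1 (0.57) and Vegfa (0.62) were lowest. In CMPs 14 passed, with 5 higher (2 of them through P2+ cells alone), 1 lower and a median of 0.33. Timp3 (at least 4.36), Thbs1 (3.75) and Serpine2 (1.82) were highest and Vegfa (-1.36), Tgfb1 (-0.49) and Pdgfb (-0.25) lowest. The chemokine genes Pf4 and Ppbp thus had reads in 1 of 47 and 0 of 47 P2+ MEPs, beside 8 of 47 for Thbs1 and 11 of 47 for Mmrn1. Of 9 granule biogenesis genes, Rab27b (3.09) and Nbeal2 (1.49), the gene of the grey platelet syndrome, were at least 2-fold higher in P2+ MEPs, a share near that of all genes, and none was 2-fold different in CMPs, with medians of 0.38 and 0.13. Vamp8 was read in all 172 cells.

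Of 19 other megakaryocyte genes, 17 passed in MEPs, with 13 higher, 1 lower and a median of at least 2.83, again a bound, and 18 passed in CMPs, with 6 higher, 0 lower and a median of 0.46. Of the higher genes, 4 in MEPs and 2 in CMPs passed through the P2+ cells alone. Sdpr (at least 7.60), Mylk (6.22) and Plek (5.16) led in MEPs, and Tubb1, the platelet beta-1 tubulin, was at most -3.67, with 37 reads in 3 P2- MEPs and none in P2+ MEPs. In CMPs Tubb1 was highest at 4.92, with 60 reads in 3 P2+ CMPs against 1 read.

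Transcription factors of the lineage were examined in the same comparisons. In MEPs all 15 passed and 7 were at least 2-fold higher, among them Erg and Ets1 (each at least 3.73, from 2 P2+ MEPs, and passed through the P2+ cells alone), Meis1 (3.49), Fli1 (3.44), Gata2 (2.59) and Runx1 (1.29). Gata1 (-0.16), Gfi1b (-0.02) and Tal1 (0.10) were lowest. Zfpm1 went from 152 to 220.6 CPM, Nfe2 from 152 to 262.8, Gabpa from 40.7 to 53.2, Srf from 36.5 to 53.1 and Mkl1 from 8.17 to 15.8 CPM, all within 2-fold. In CMPs Ets1 (2.82) and Runx1 (1.12) were at least 2-fold higher and Gata1 (-1.24) lower, with a median of 0.08, both smaller shares than the 17.4% and 14.7% of all genes. Fli1 went from 7.29 to 79.3 CPM between P2- and P2+ cells in MEPs and from 106 to 90.7 CPM in CMPs.

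**Figure D5:**
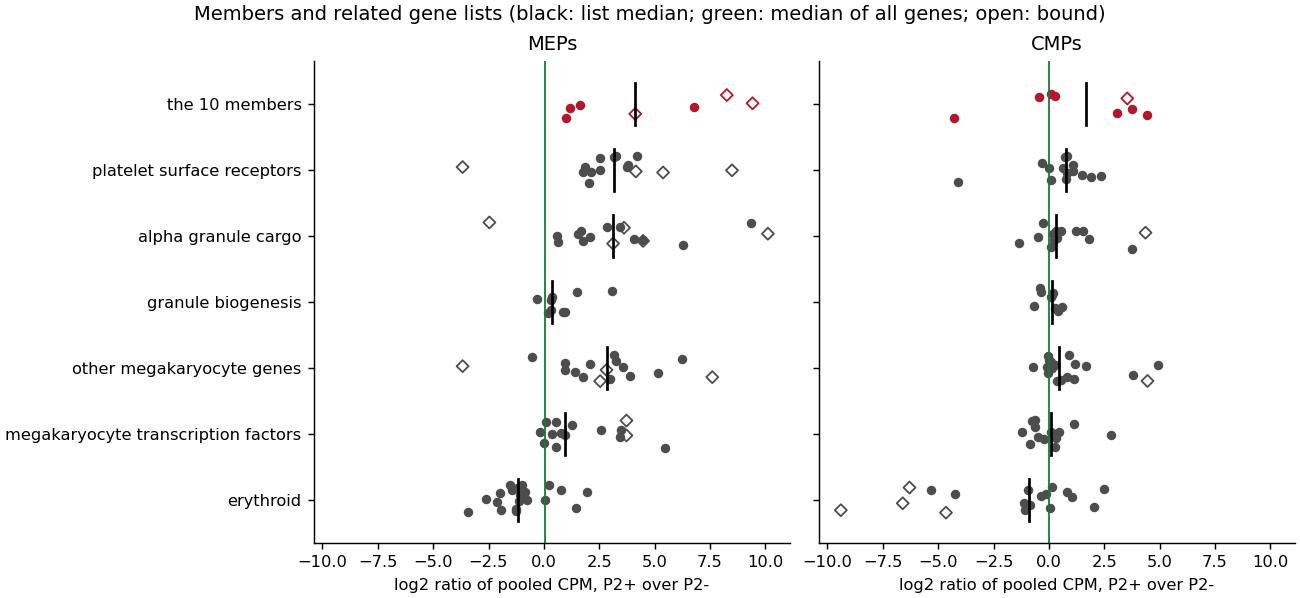
Log2 ratio of pooled CPM of P2+ over P2- cells (horizontal axis) for the 10 genes (red) and for genes of 6 related lists (grey) with at least 10 reads, in MEPs (left) and CMPs (right). Black bars are list medians, open diamonds are bounds and the green line is the median of all genes. In MEPs the receptor and cargo lists have medians of 3.14 and at least 3.13 against 0.06 for all genes, and in CMPs 0.78 and 0.33 against -0.0020.

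Markers of other cell types were counted in the same cells, against the same shares of all genes, 20.4% higher and 12.5% lower in P2+ MEPs and 17.4% and 14.7% in P2+ CMPs. The 20 erythroid genes summed to 2706 CPM (P2-) and 1544 CPM (P2+) in MEPs and to 860 and 461 CPM in CMPs. Of these, 12 were at least 2-fold lower and 2 higher in P2+ than in P2- MEPs, and 8 lower and 3 higher in CMPs. Of the lower genes, 2 in MEPs and 5 in CMPs passed the minimum through P2- cells alone, as did 1 of the higher genes in CMPs through P2+ cells alone. Stem and multipotent genes summed to 52.5 CPM in P2- and 292.5 CPM in P2+ MEPs, and to 1068 and 1693 CPM in P2- and P2+ CMPs. In MEPs 6 of 6 genes that passed were at least 2-fold higher, 2 of them through P2+ cells alone. In CMPs 2 of 10 were higher, 1 of them in that way. The granulocyte and monocyte list went from 9.87 to 61.2 CPM in MEPs, with Lyz2 read in 6 P2+ MEPs and 0 P2- MEPs and with 5 of 6 at least 2-fold higher, 3 of them through P2+ cells alone. In CMPs this list summed to 498 CPM (P2-) and 767 CPM (P2+), and 3 of 12 were higher and 3 lower, of which 1 and 2 passed through a single population. The lymphoid list went from 0.948 to 34.4 CPM in MEPs, in P2+ cells all of it from Cd79b and Nkg7, with 9 of 11 genes at 0. Its sums in CMPs were 97.1 CPM (P2-) and 120.8 CPM (P2+). Macrophage genes summed to 1.27 and 10.2 CPM in MEPs and 6.22 and 6.27 CPM in CMPs, with 2 of 2 that passed higher in P2+ MEPs and 1 of 2 in P2+ CMPs, 1 of them in either case through P2+ cells alone. The mast and basophil list consisted of Cpa3 alone among genes that passed, at a log2 ratio of 3.04 in MEPs and -1.09 in CMPs. Of the endothelial genes 2 of 4 were higher in P2+ MEPs and 2 of 7 in P2+ CMPs, 1 of each pair through P2+ cells alone. Hepatocyte genes summed to 11.99, 10.7, 28.0 and 13.6 CPM in the 4 populations, with 2 higher and 2 lower in either comparison, of which 4 in MEPs and 3 in CMPs passed through a single population, and Alb was read in 6 P2- MEPs, 0 P2+ MEPs, 1 P2- CMP and 0 P2+ CMPs. The part of these cell types in the levels of the platelet genes was not tested.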

How the data were processed

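The members and the gene lists were chosen with earlier results of these data known. Per the labels, libraries of single cells were made by a modified Smart-Seq2 protocol without molecular identifiers, so that PCR copies are counted as reads. The authors trimmed the reads with trimmomatic 0.36, aligned them with STAR 2.4.2a to GRCm38 and ERCC sequences and counted them with HTSeq 0.6.1p1 on GENCODE M12 exons without regard to strand. The deposited values are raw counts, not normalized. The unmapped reads of a cell were deposited by the authors as a percent. Reads assigned to more than 1 gene, 25.6% of the uniquely mapped reads, and to no gene, 7.40%, were left out. The labels' low and high CMPs were read as P2- and P2+.

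Cells with fewer than 250000 reads, over 25% unmapped reads or over 15% ERCC reads were removed, as the study's methods state, leaving 172 of 175, with 571806 to 2827426 reads each. The study's test between cells was not used, since the cells of a population come from 1 pool. Counts were summed per population. Intervals at 95% are exact Poisson intervals for CPM, exact conditional binomial intervals for ratios and Clopper-Pearson intervals for shares above 0, and a share of 0 was given the limit of 3 cells. Ratios used genes with at least 10 reads over both populations, and a gene at 0 reads was set to 3. The ratio script was tested on simulated data. Shares were computed after thinning to 100000 reads (seed 1). Likeness was Spearman's rho over genes read in at least 25% of cells. Exon lengths and overlaps came from GENCODE vM21 (GRCm38) and promoters from RefSeq (GRCm38.p6).

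Besides the members, the text names the 3 highest and 3 lowest ratios of each platelet and megakaryocyte list, the transcription factors, the sorted antigens, the 10 genes most like the members, and genes overlapping a member, except for 1 gene that is not reported here. Of the other lists, Lyz2, Cd79b, Nkg7, Cpa3, Cdh5, Emcn, Tek, Kdr, Egfl7 and Alb, and the co-detected Klf1, Thbs1 and Plek, were chosen after their values were seen. Python 3.11.15, numpy 2.4.6, scipy 1.17.1, pandas 2.3.3 and matplotlib 3.10.9 were used.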

Additional observations from a re-analysis of the deposited data

Results flagged for a closer look

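Gp5 and Vwf had opposite directions in the MEPs and the CMPs. The log2 ratio of P2+ over P2- cells was 1.18 in MEPs and -0.45 in CMPs for Gp5, a difference of 1.64, and 6.79 and -4.30 for Vwf, a difference of 11.09. Each population is 1 sample, so the difference was not tested, and the Vwf values rest on 13 cells in all. The P2+ MEP that the filters removed, for 27.9% unmapped reads, held 156 reads of members among 315322 reads on mouse genes, whereas the removed P2- MEP and P2+ CMP, with 63 and 765 such reads, held 0. Its member reads were 73 of Itga2b, 25 of Gp5, 23 of Gp9, 16 of Gp1ba, 11 of Vwf and 8 of Pf4, so that with this cell Pf4 would have reads in a second P2+ MEP.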

How the results depend on the processing

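No value reversed among those with an interval that excluded 0. Without the cell of highest CPM of each gene, P2+ over P2- CMPs had 1281 genes at least 2-fold lower, P2+ over P2- MEPs 2111 and P2- CMPs over P2- MEPs 2530 genes at least 2-fold higher, and P2+ CMPs over P2+ MEPs 1 member higher in place of 2, since the bound of Itgb3 then rested on 9 reads. With a minimum of 100 reads, the genes at least 2-fold higher and lower were 1540 and 616 for P2+ over P2- MEPs, 1178 and 1072 for P2+ over P2- CMPs, 2314 and 953 for P2- CMPs over P2- MEPs and 2115 and 1218 for P2+ CMPs over P2+ MEPs, where 1 member was higher, and fewer genes were tested. In the reported form these counts were 3222 and 1978, 2806 and 2367, 4025 and 2356, and 3838 and 2741. Without the highest cell the log2 ratio of Pf4 in P2+ CMPs over P2+ MEPs became a bound of 5.72 in place of 2.18, and that of Vwf in P2- CMPs over P2- MEPs a bound of 6.18 in place of 8.86. The direction was kept in 30 of 30 ratios with every deposited cell, without mitochondrial genes and Rn18s-rs5, and without the P2- CMP of conflicting label. With equal weight for every cell and with DESeq2 size factors it was kept in 29 of 30, the exception being Itga2b in P2- CMPs over P2- MEPs. No paired analysis was possible because the replicate numbers only name single cells. Statements on Gp6, Ppbp, Itgb3 and Pf4 are limited by the few cells with a read, 8 or fewer for each. Whether deeper sequencing would find more was not tested.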
